A study of Mus musculus with 6 samples.

Results

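Transcripts of 8 cytochrome P450 genes, Cyp2d9, Cyp2d10, Cyp2d22, Cyp2d26, Cyp2e1, Cyp2j5, Cyp2j6 and Cyp2u1, were compared between SHP-/- and wild-type mouse liver. They were taken by gene name from the authors' deposited gene table, which lists 33495 gene rows, 19594 of them with at least 1 count, and all 8 were among these. The SHP-/- group was 3 male mice of 2 months on a C57BL6 background, and the wild-type group was 3 males of the same strain background and age. Nr0b2 encodes SHP, an orphan member of the nuclear receptor family that does not bind DNA itself and dampens the activity of its partners. Whole-liver RNA carrying a 5' cap was selected with a variant of the cap-binding protein EIF4E and sequenced as paired reads of 36 cycles. The labels used here do not say how the allele was made or which part of the gene it lacks, or whether it acts in every cell type.

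Cytochrome P450 enzymes of the CYP2 family are heme proteins of the endoplasmic reticulum that insert an oxygen atom into drugs, steroids, fatty acids and small solvents, using electrons passed on by P450 oxidoreductase. In hepatocytes, CYP2E1 oxidises ethanol, acetone and acetaminophen and lies mainly around the central vein. Mouse CYP2D enzymes form an expanded cluster of close copies, in which Cyp2d9 encodes a male-biased testosterone 16-alpha-hydroxylase, while CYP2J enzymes and CYP2U1 act on arachidonic acid and other long-chain fatty acids.

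Total counts ran from 4494353 to 7225842 in the SHP-/- libraries and from 4982530 to 6155064 in the wild-type libraries. Values below are CPM, counts divided by the library total after its adjustment with trimmed-mean (TMM) factors. Differences are log2 SHP-/- minus wild type with their standard error, from limma voom fitted on the 11794 genes that passed a filter on low counts, with Benjamini-Hochberg adjustment and a threshold of 0.05. Nr0b2 itself was at 6.62, 7.07 and 10.3 CPM in SHP-/- libraries and at 17.7, 12.3 and 13.5 CPM in wild-type libraries (log2 difference −0.81 ± 0.25, limma voom adjusted p = 0.0443), so transcript was still counted in the SHP-/- libraries. That call held in 1 of the 6 fits with a library removed. Hepatocyte markers were abundant in both groups, with Alb at 57124 ± 3753 CPM in SHP-/- liver and 55797 ± 9546 CPM in wild type, and Hnf4a at 965 ± 79.6 CPM in SHP-/- and 876 ± 33.2 CPM in wild type (SD, n = 3 each). Mitochondrially encoded transcripts took 5.66% to 7.10% of counts in SHP-/- libraries and 10.2% to 10.3% in wild-type libraries. Barcoded samples were run 3 to a lane, and lane and genotype cannot be told apart from the labels used here. In whole liver, fewer cells of a type and less RNA per cell cannot be told apart.

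The CYP2D genes are shown first by a stretch they share, because near-identical copies can share reads. In GENCODE M21 transcripts, the longest run common to the coding sequences of Cyp2d9 and Cyp2d10 was 164 bases, coding bases 318 to 481 in both genes, given here from 5' to 3' with no base in capitals.
Cyp2d9 and Cyp2d10: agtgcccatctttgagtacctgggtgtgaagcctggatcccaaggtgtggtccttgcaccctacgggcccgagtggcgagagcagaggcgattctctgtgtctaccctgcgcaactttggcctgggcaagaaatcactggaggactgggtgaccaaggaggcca
Any read of 36 bases that lies wholly inside this run matches both genes, though its mate may lie outside it. The coding sequences of Cyp2d9 and Cyp2d10 were 92.5% identical, those of Cyp2d10 and the neighbouring copy Cyp2d11 94.7%, and those of Cyp2j5 and Cyp2j6 78.4%.

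Cut into every possible window of 36 bases, 53.2% of the Cyp2d10 coding sequence and 44.8% of that of Cyp2d9 also occurred in a transcript of another gene, on either strand. Each window stands for a single read, so mates outside a shared stretch and counted bases outside the coding sequence were not considered. The shares were 16.7% for Cyp2d22, 16.1% for Cyp2d26, 4.42% for Cyp2j6 and 2.92% for Cyp2j5, and 0 of the 1447 windows of Cyp2e1 were shared. Cyp2u1 shared 26.6% of its windows with 1 gene, 4930534D22Rik, and all 414 of these lay on the opposite strand. Single reads inside these windows cannot be told apart between the 2 genes unless strand was used in counting. Of the Cyp2d10 windows, 530 (35.8%) also occurred in Cyp2d11, which had 20 counts in all 6 libraries together, against 14589 for Cyp2d10. Of the Cyp2d9 windows, 301 also occurred in Cyp2d12, which had 9 counts in all, and Cyp2d34 had 2. Values of Cyp2d9 and Cyp2d10 remain uncertain to the extent that reads inside shared stretches were dropped or assigned to 1 copy, a step not given in the sources used here.

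**Figure D1:**
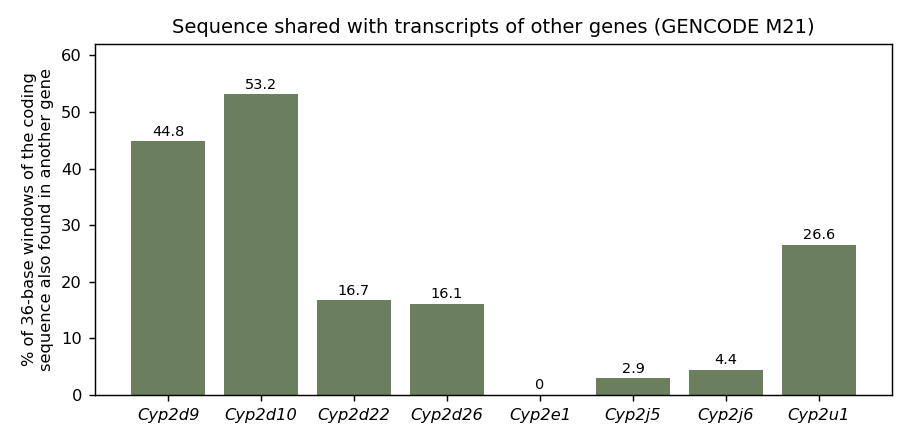
Bars give, for each enzyme, the percentage of 36-base windows of its coding sequence (y axis) that also occur in a GENCODE M21 transcript of another gene, on either strand. Cyp2d10 (53.2%) and Cyp2d9 (44.8%) share most, and Cyp2e1 shares 0.

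Promoter sequence was available from RefSeq (GRCm38.p6) for 6 of the 8 genes, all but Cyp2d22 and Cyp2u1. The 150 bases before the transcription start are shown for the 3 CYP2D genes, which did not pass the test, and for Cyp2j5 and Cyp2j6. Of the CYP2J genes shown, Cyp2j5 passed and Cyp2j6 did not. Each runs 5' to 3' on its gene's strand, and capitals mark matches to CAAAGNNCA, an HNF4-type motif, and to TATAAA, on either strand. The intervals were chr15:82452227-82452376 on the plus strand for Cyp2d9, chr15:82407195-82407344 and chr15:82794246-82794395 on the minus strand for Cyp2d10 and Cyp2d26, and chr4:96664120-96664269 and chr4:96553652-96553801 on the minus strand for Cyp2j5 and Cyp2j6.
Cyp2d9: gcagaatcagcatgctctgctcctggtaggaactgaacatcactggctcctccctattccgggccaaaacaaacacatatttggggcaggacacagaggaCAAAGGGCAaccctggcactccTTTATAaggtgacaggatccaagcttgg
Cyp2d10: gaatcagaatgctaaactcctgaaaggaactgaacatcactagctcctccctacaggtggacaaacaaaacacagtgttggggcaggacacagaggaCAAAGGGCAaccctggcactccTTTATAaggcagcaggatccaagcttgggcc
Cyp2d26: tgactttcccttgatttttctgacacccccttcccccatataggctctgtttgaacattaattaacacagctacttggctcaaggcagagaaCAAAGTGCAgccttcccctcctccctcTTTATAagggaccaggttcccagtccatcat
Cyp2j5: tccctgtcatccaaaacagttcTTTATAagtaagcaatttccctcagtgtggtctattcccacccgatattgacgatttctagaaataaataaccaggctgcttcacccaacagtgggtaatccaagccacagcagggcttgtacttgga
Cyp2j6: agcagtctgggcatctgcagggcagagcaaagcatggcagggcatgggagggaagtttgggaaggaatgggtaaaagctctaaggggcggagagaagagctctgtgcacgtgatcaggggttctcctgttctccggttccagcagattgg
Motifs were chosen after the sequences had been seen, and a match is a description only. CAAAGNNCA began 50, 53 and 58 bases before the start in Cyp2d9, Cyp2d10 and Cyp2d26, against matches in 5.49% of the 32851 RefSeq promoters of the same length. TATAAA, read on the reverse strand as TTTATA, began 28, 31 and 31 bases before the start in those genes and 128 bases before it in Cyp2j5. In Cyp2e1 it began 31 bases before the start on the forward strand. It matched in 12.4% of all promoters. Over the 250 bases before the start, the 6 genes held no match to TTCNNNGAA (STAT5, 7.02% of all promoters), GTTAATNAT (part of the HNF1 site, 0.737%) or CAAGGNCA (LRH-1, 5.53%), which says only that these letters are not in this window. CCAAT matched in Cyp2d26, Cyp2e1 and Cyp2j6, against 33.9% of all promoters, and did not overlap the motifs in capitals. The Cyp2d9 and Cyp2d10 promoters were 82.4% identical, and those of Cyp2j5 and Cyp2j6 36.3%.

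Of the 8 enzymes, 1 fell in SHP-/- liver (Cyp2j5), 0 rose by limma voom or limma trend, and 7 did not pass. Over all 11794 genes tested, 14.5% passed the threshold, 7.58% towards higher and 6.94% towards lower, so 1 call among 8 is near the background. The median log2 difference of the 8 was −0.02, that of all genes tested −0.01, and the median size regardless of sign was 0.10 for the 8 and 0.29 for all genes. At an unadjusted p under 0.05 there were 2 members, Cyp2j5 and Cyp2u1. The groups did not overlap for these same 2 genes, against 35.1% of all genes tested. The counts over all genes rested in part on 1 library: without wild-type library 3, 353 genes were higher and 276 lower, where the 6 libraries together gave 894 and 819.

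**Figure D2:**
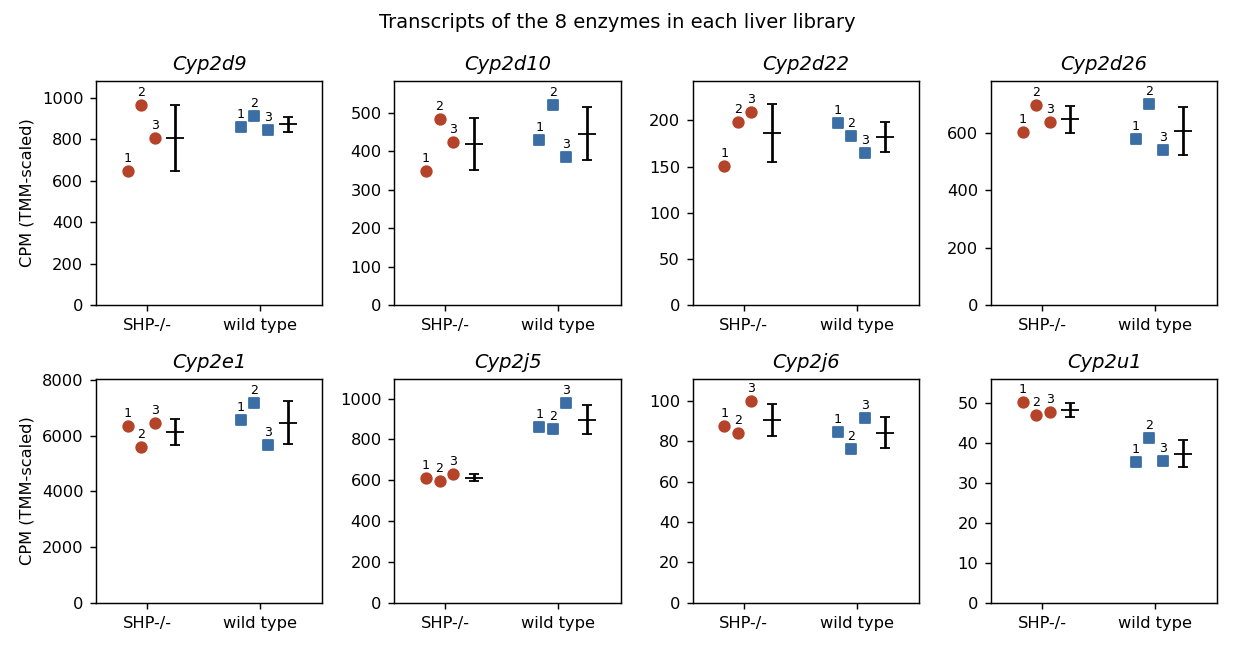
Each panel plots TMM-scaled CPM (y axis, from 0) of 1 enzyme in the 3 SHP-/- libraries (circles) and the 3 wild-type libraries (squares), numbered by replicate, with the mean ± SD beside them (n = 3). SHP-/- points lie below every wild-type point for Cyp2j5 and above every wild-type point for Cyp2u1, and the groups overlap for the other 6 genes.

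Cyp2j5, an arachidonic acid epoxygenase best known from kidney and liver, was lower in SHP-/- liver. It was at 609, 599 and 632 CPM in the SHP-/- libraries, from 2669, 3048 and 4706 counts, and at 861, 853 and 978 CPM in the wild-type libraries, from 5047, 4106 and 6161 counts. The highest SHP-/- library lay below the lowest wild-type library, and the SHP-/- libraries were close to each other (613 ± 16.9 CPM, against 898 ± 70.1 CPM in wild type; SD, n = 3 each). The log2 difference was −0.55 ± 0.10 (95% interval −0.75 to −0.34, limma voom adjusted p = 0.00283), a level of 0.684 of wild type with an interval from 0.593 to 0.790. It passed in all 15 alternatives tried, with adjusted p from 0.000647 to 0.0232 and log2 differences from −0.58 to −0.48. With the mitochondrial genes left out of the scaling it was −0.55 ± 0.10. In the authors' deposited table the pooled log2 ratio of Cyp2j5 was −0.54.

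Cyp2j6, the neighbouring CYP2J gene, which in mouse is expressed mainly in the small intestine, had 87.7, 84.3 and 99.6 CPM in SHP-/- libraries, against 84.6, 76.3 and 91.5 CPM in wild-type libraries. The groups overlapped. Its log2 difference was 0.11 ± 0.12 (95% interval −0.14 to 0.36, limma voom adjusted p = 0.576). Within each library, which removes scaling, Cyp2j5 had 6.95, 7.10 and 6.34 times the counts of Cyp2j6 in SHP-/- liver and 10.2, 11.2 and 10.7 times in wild type, with no overlap between the groups. These ratios are a description with no test. Cyp2j9, the only other CYP2J gene tested and best known from brain, was low and also fell, at 10.5, 7.27 and 9.40 CPM in SHP-/- libraries against 17.1, 24.5 and 17.2 CPM in wild-type libraries (log2 difference −1.08 ± 0.23, limma voom adjusted p = 0.00826, passing in all 15 alternatives). It was drawn in as a relative, not as 1 of the 8 enzymes.

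The CYP2J genes lie together on the minus strand of chromosome 4 (mm9), Cyp2j6 at 96182829 to 96220352, Cyp2j9 at 96235120 to 96258269 and Cyp2j5 at 96295464 to 96330845. Nr0b2 lies on the same chromosome, 36.8 Mb further on. The nearest tested genes outside the cluster were Hook1, 491 kb away, at 77.9 ± 3.21 CPM in SHP-/- and 106 ± 14.9 CPM in wild type (log2 difference −0.44 ± 0.12, limma voom adjusted p = 0.0284), and AL772257.2, 857 kb away (−0.46 ± 0.19, adjusted p = 0.117). Hook1 kept its call in 1 of the 6 fits with a library removed, and its adjusted p ran up to 0.0967.

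Over the 6 libraries the 3 genes whose log2 CPM were most like that of Cyp2j5 were Fgd4 (r = 0.999), Igf1 (r = 0.995) and Nipbl (r = 0.995). As a description, 271 genes had r above 0.95 with Cyp2j5, where the libraries share only 2 groups and 6 points. Igf1, the growth factor that the liver secretes under growth hormone, was at 619, 616 and 634 CPM in SHP-/- libraries and at 790, 824 and 896 CPM in wild-type libraries (−0.42 ± 0.09, limma voom adjusted p = 0.0101), a call lost without wild-type library 3 (adjusted p = 0.0584). Fgd4 had −0.87 ± 0.16 (adjusted p = 0.00392). Nipbl had −0.41 ± 0.11 (adjusted p = 0.0206), which was lost without SHP-/- library 1, SHP-/- library 2 or wild-type library 3. Because these 3 genes were picked by likeness to Cyp2j5 over the same libraries, a difference in its direction was built into the choice.

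Cyp2u1, a hydroxylase of long-chain fatty acids, was the lowest of the 8 per kilobase and the only other one whose groups did not overlap. It had 50.2, 46.9 and 47.8 CPM in SHP-/- libraries, from 220, 239 and 356 counts, against 35.3, 41.4 and 35.6 CPM in wild-type libraries, from 207, 199 and 224 counts. Every SHP-/- library lay above every wild-type library. The log2 difference was 0.38 ± 0.13 (95% interval 0.10 to 0.65, a ratio of 1.30 with an interval from 1.07 to 1.57), with an unadjusted p = 0.0106 that did not pass adjustment over all genes (limma voom adjusted p = 0.0628). It passed in 1 of 15 alternatives, the stricter low-count filter (adjusted p = 0.0457), and adjusted p ran up to 0.187 in the others. The authors' deposited table gave a pooled log2 ratio of 0.37 for Cyp2u1. The neighbours Hadh and Sgms2 on chromosome 3 had log2 differences of −0.12 ± 0.10 and −0.03 ± 0.15 and did not pass.

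Cyp2e1, the ethanol- and acetone-oxidising enzyme, was the most abundant of the 8 per kilobase and 12th of all genes tested by mean CPM, which is not divided by length. Its level was 6351, 5596 and 6443 CPM in SHP-/- libraries and 6568, 7177 and 5653 CPM in wild-type libraries. SHP-/- library 2 and wild-type library 3 were the low ones, and the groups overlapped. Means were 6130 ± 465 CPM in SHP-/- and 6466 ± 767 CPM in wild type (SD, n = 3 each), and the log2 difference was −0.07 ± 0.11 (limma voom adjusted p = 0.692). The 95% interval, −0.30 to 0.16, spans a ratio from 0.810 to 1.12, so a larger change in either direction lies outside it. Cyp2e1 alone took 64.5% to 71.8% of the counts of the 8 enzymes in SHP-/- libraries and 65.0% to 68.6% in wild-type libraries.

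As a description over 6 libraries, the 3 genes most like Cyp2e1 were Naip2 (r = 0.985), Atxn10 (r = 0.976) and Supt7l (r = 0.971), and 11 genes had r above 0.95. None of these 3 passed the test, with log2 differences of −0.13 ± 0.34, −0.04 ± 0.15 and 0.02 ± 0.31. They were picked by likeness to Cyp2e1 over the same libraries, so this is not a separate result. Naip2 (4.77 CPM in SHP-/-, 5.64 CPM in wild type) and Supt7l (7.45 CPM in SHP-/-, 7.89 CPM in wild type) were low. The nearest tested genes to Cyp2e1 on chromosome 7, Mtg1 and 1190003J15Rik, had 0.45 ± 0.26 and 0.05 ± 0.11 and did not pass.

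The 4 CYP2D genes, which lie on chromosome 15 (mm9) between 82201905 and 82624675, did not pass. Cyp2d9 was at 645, 966 and 805 CPM in SHP-/- libraries and at 857, 914 and 844 CPM in wild-type libraries. SHP-/- library 1 was the lowest library and SHP-/- library 2 the highest, so the wild-type values sat inside the SHP-/- range, and the log2 difference was −0.13 ± 0.13 (95% interval −0.41 to 0.14, limma voom adjusted p = 0.527). Cyp2d10, a close copy, was at 348, 484 and 423 CPM in SHP-/- libraries and 429, 521 and 385 CPM in wild-type libraries (−0.09 ± 0.14, 95% interval −0.38 to 0.20, adjusted p = 0.702).

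Cyp2d26 was at 603, 697 and 638 CPM in SHP-/- libraries and at 577, 700 and 541 CPM in wild-type libraries. The groups overlapped (log2 difference 0.10 ± 0.11, 95% interval −0.14 to 0.34, limma voom adjusted p = 0.589). Cyp2d22, often compared with human CYP2D6, was at 151, 198 and 209 CPM in SHP-/- libraries and at 197, 182 and 165 CPM in wild-type libraries. Its groups also overlapped (0.03 ± 0.13, 95% interval −0.25 to 0.31, adjusted p = 0.900). SHP-/- library 1 was the lowest SHP-/- library for each of the 4 genes, and their summed CPM was 1747, 2345 and 2076 in SHP-/- libraries, against 2061, 2317 and 1935 in wild-type libraries.

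Ratios between CYP2D copies within a library overlapped between the groups. Cyp2d9 had 1.85, 2.00 and 1.90 times the counts of Cyp2d10 in SHP-/- liver and 2.00, 1.76 and 2.19 times in wild type. Cyp2d26 had 4.00, 3.53 and 3.05 times the counts of Cyp2d22 in SHP-/- liver, against 2.93, 3.84 and 3.28 times in wild type. Cyp2d40, the only other CYP2D gene tested, was at 28.6 ± 9.0 CPM in SHP-/- and 35.0 ± 3.22 CPM in wild type (log2 difference −0.41 ± 0.21, limma voom adjusted p = 0.192). The genes flanking the cluster, Ndufa6 and Tcf20, had −0.09 ± 0.10 and −0.05 ± 0.11 and did not pass.

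**Figure D3:**
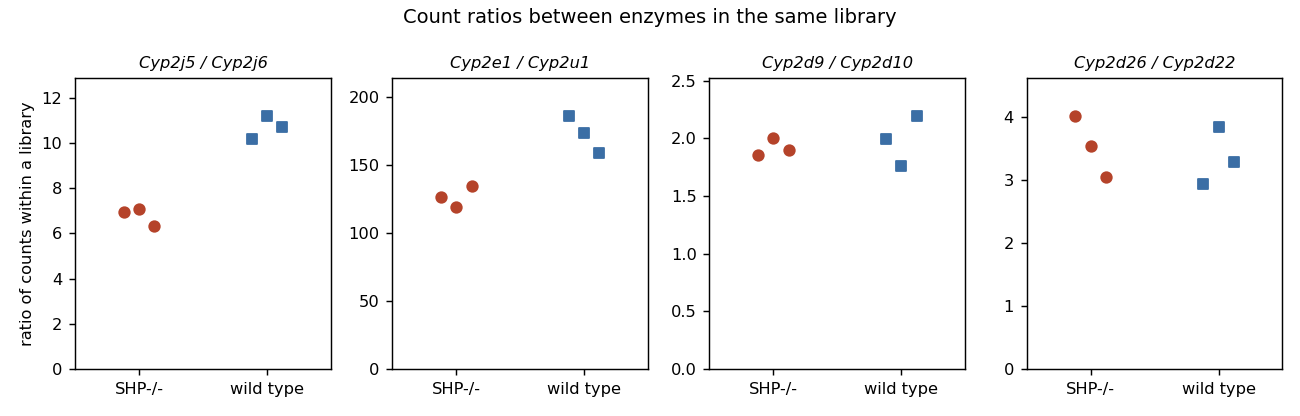
Each panel plots the ratio of the counts of 2 enzymes within the same library (y axis, from 0), for the 3 SHP-/- libraries (circles) and the 3 wild-type libraries (squares). Cyp2j5 over Cyp2j6 lies at 6.34 to 7.10 in SHP-/- libraries and at 10.2 to 11.2 in wild-type libraries. Cyp2e1 over Cyp2u1 also does not overlap, whereas both CYP2D ratios do.

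Per kilobase of the counted gene length, Cyp2e1 had the highest level in both groups, at 3535 CPM per kb in SHP-/- and 3729 CPM per kb in wild type. Cyp2d9 came next, at 489 CPM per kb in SHP-/- and 529 CPM per kb in wild type. The order below it differed between the groups: in SHP-/- liver Cyp2d26 (393 CPM per kb) stood above Cyp2j5 (262) and Cyp2d10 (256), and in wild type Cyp2j5 (383) and Cyp2d26 (368) stood above Cyp2d10 (272). Of neighbours in these orders, the ranges of Cyp2d9 and Cyp2d26 and of Cyp2j5 and Cyp2d10 overlapped in SHP-/- liver, and those of Cyp2j5 and Cyp2d26 overlapped in wild type. Cyp2d22 followed at 108 CPM per kb in SHP-/- and 105 in wild type. Cyp2j6 was at 25.1 CPM per kb in SHP-/- and 23.3 in wild type, and Cyp2u1 at 21.5 in SHP-/- and 16.7 in wild type. In the authors' deposited table the pooled RPKM ran from 14.0 for Cyp2u1 to 2323 for Cyp2e1 in SHP-/- and from 10.6 to 2367 in wild type.

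Other CYP2 genes that fell included several abundant ones. The list of these genes holds the relatives Cyp2j9 and Cyp2d40 given above, with Cyp2j9 among those that fell. Of 19 tested, 10 fell, 0 rose (2 at an unadjusted p under 0.05, 0 by limma trend) and 9 did not pass, with a median log2 difference of −0.67 against −0.01 for all genes tested, and 9 or 10 fell in each fit that left out 1 library, while 1 rose without SHP-/- library 3. Cyp2c55 was at 2.07 ± 0.929 CPM in SHP-/- and 12.6 ± 4.78 CPM in wild type (log2 difference −2.65 ± 0.46, limma voom adjusted p = 0.00264). Cyp2a5, a coumarin 7-hydroxylase, fell by 1.36 ± 0.18 on the log2 scale (adjusted p = 0.000461). Cyp2c29, at 644 ± 99.4 CPM in SHP-/- and 1561 ± 150 CPM in wild type, fell by 1.28 ± 0.12 (adjusted p = 5.00e-05). Cyp2c70 was the most abundant that did not pass, at −0.04 ± 0.14. CYP2C genes are also close copies, and shared windows were not counted for any of these other CYP2 genes. Their separate values, that of Cyp2a5 included, are therefore uncertain. Whether the 8 enzymes differ from these genes as a group was not tested.

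**Figure D4:**
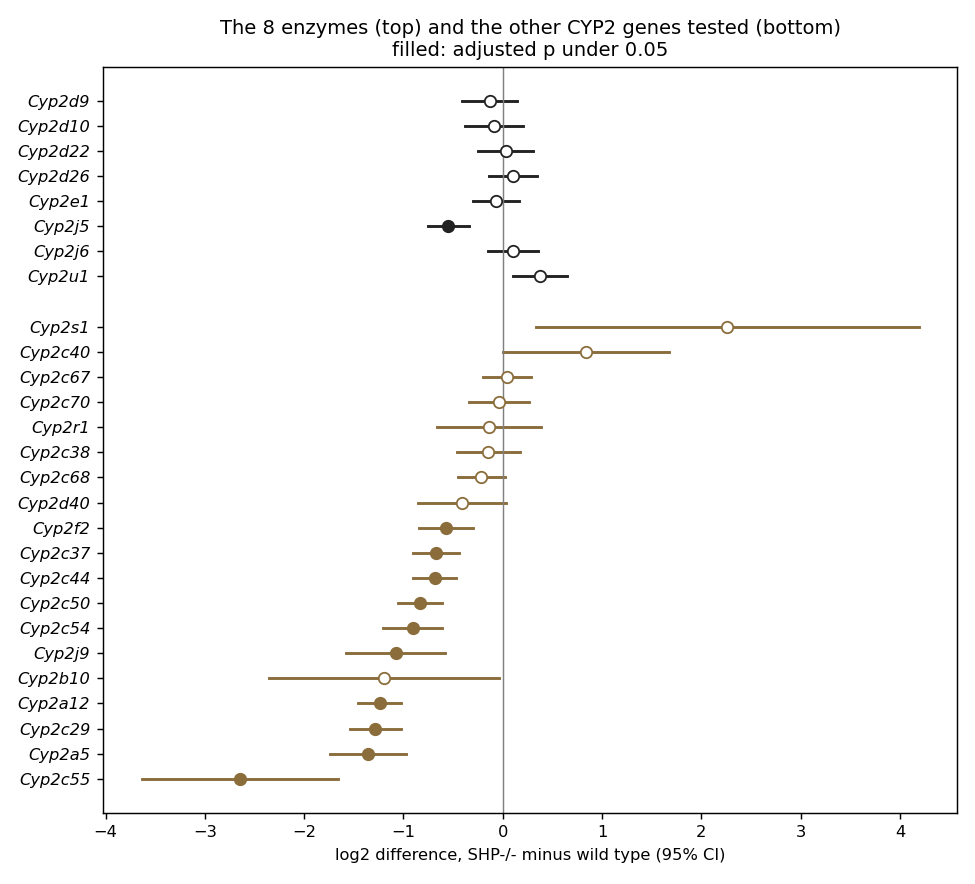
Points give the log2 difference, SHP-/- minus wild type (x axis), with its 95% interval for the 8 enzymes (top, black) and the 19 other CYP2 genes tested (bottom, brown). Filled points passed the adjusted threshold. Among the 8, Cyp2j5 at −0.55 is the single filled point, and 10 of the 19 others are filled, all of them to the left of 0.

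The partners that supply P450 enzymes with electrons and heme mostly did not pass. Of 7 electron-transfer genes 1 rose, 1 fell and 5 did not pass. Por, the P450 oxidoreductase, was at 474, 441 and 379 CPM in SHP-/- libraries and at 308, 261 and 230 CPM in wild-type libraries (log2 difference 0.70 ± 0.12, limma voom adjusted p = 0.00296), with every SHP-/- library above every wild-type library. Cyb5b, a cytochrome b5 of the mitochondrial outer membrane, had −0.33 ± 0.10 (adjusted p = 0.0361), and passed in 1 of the 6 fits with a library removed. Pgrmc1 did not pass (−0.03 ± 0.09). Of 12 genes of heme synthesis and breakdown 1 rose, 0 fell (also 0 at an unadjusted p under 0.05 and by limma trend) and 11 did not pass. Alas1, which catalyses the first and rate-limiting step of heme synthesis, was at 556, 436 and 348 CPM in SHP-/- libraries and at 349, 185 and 136 CPM in wild-type libraries, so the groups overlapped by 1 library. Its log2 difference was 1.08 ± 0.26 (adjusted p = 0.0135), and the call was lost without wild-type library 2 or 3 and under robust variance moderation (adjusted p up to 0.180). Cpox had −0.06 ± 0.11.

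Genes that release or process arachidonic acid, the substrate of CYP2J enzymes, went in both directions: of 14 tested, 2 rose, 3 fell and 9 did not pass. Ephx1, the microsomal epoxide hydrolase, was at 246 ± 16.9 CPM in SHP-/- and 464 ± 58.3 CPM in wild type (log2 difference −0.91 ± 0.11, limma voom adjusted p = 0.000301). Mgll, which cleaves monoacylglycerols, had −0.66 ± 0.15 (adjusted p = 0.0129). Lta4h, of leukotriene synthesis, had 0.52 ± 0.16 (adjusted p = 0.0479), a call lost in 8 of 15 alternatives, and Faah did not pass (0.09 ± 0.11). Without SHP-/- library 1, wild-type library 1 or wild-type library 3, 0 of these genes rose.

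Of 11 tested genes of ethanol and acetone oxidation beside Cyp2e1, 4 rose, 2 fell and 5 did not pass. Aldh1b1, a mitochondrial aldehyde dehydrogenase, was at 143 ± 14.0 CPM in SHP-/- and 76.7 ± 15.9 CPM in wild type (log2 difference 0.91 ± 0.14, limma voom adjusted p = 0.00124). Adh7 had −0.97 ± 0.22 (adjusted p = 0.0104, lost without wild-type library 3 at 0.0630), and Aldh3a2, of fatty aldehyde oxidation, had −0.85 ± 0.14 (adjusted p = 0.00211). Adh1, the main hepatic alcohol dehydrogenase, did not pass (−0.17 ± 0.09), at 1892 ± 49.6 CPM in SHP-/- and 2131 ± 128 CPM in wild type. When wild-type library 3 was left out, 2 genes of the list rose and 1 fell.

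Among 26 regulators of liver P450 genes 8 rose, 3 fell and 15 did not pass. The 3 that fell included Nr0b2, the targeted gene itself. The others were Nr1i3 (log2 difference −0.82 ± 0.16, limma voom adjusted p = 0.00466) and, close to the threshold, Nr5a2 (−0.34 ± 0.11, adjusted p = 0.0466). With library totals left unadjusted, with no low-count filter or with a replicate block, 1 regulator fell. Cebpa, at 486 ± 20.3 CPM in SHP-/- and 239 ± 26.6 CPM in wild type, rose by 1.02 ± 0.11 on the log2 scale (limma voom adjusted p = 0.000101). Cebpb rose by 1.09 ± 0.16 (adjusted p = 0.00106) and Foxa2 by 1.03 ± 0.20 (adjusted p = 0.00541). These encode liver-enriched transcription factors. Hnf4a did not pass, at 0.14 ± 0.10. Without wild-type library 3, 5 rose, and the count that fell was 1 or 2 in each fit without 1 library.

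Growth hormone signalling, which sets sex-biased P450 expression in mouse liver, had 4 genes that rose, 2 that fell and 7 that did not pass of 13. The 2 that fell were the receptor gene Ghr (log2 difference −0.49 ± 0.10, limma voom adjusted p = 0.00523) and Igf1, given above. Cish, a feedback inhibitor, was at 63.7, 84.3 and 38.0 CPM in SHP-/- libraries and at 11.6, 1.25 and 4.13 CPM in wild-type libraries (log2 difference 3.73 ± 0.58, limma voom adjusted p = 0.00137). Socs3 had 2.86 ± 0.49 (adjusted p = 0.00236), and both calls were lost under robust variance moderation (0.0653 and 0.0935). Onecut1 had 2.16 ± 0.28 (adjusted p = 0.000429), and Igfbp1 did not pass (0.25 ± 0.29). Igfbp1 rested on SHP-/- library 3: it passed without that library, with a log2 difference of 0.72, and ran down to −0.086 in the other fits without 1 library. Without SHP-/- library 3, 6 of the 13 rose, and without wild-type library 3, 1 fell.

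Male-biased liver genes beside Cyp2d9 moved in both directions: of 23 tested, 4 rose, 2 fell and 17 did not pass. Cyp4a12a rose by 1.20 ± 0.18 on the log2 scale (limma voom adjusted p = 0.00112), Mup20 had −1.28 ± 0.23 (adjusted p = 0.00356, lost under robust variance moderation at 0.104), and Slco1a1 had −0.94 ± 0.11 (adjusted p = 0.000227). Mup3 did not pass (−0.20 ± 0.11). Without SHP-/- library 3, 9 rose, without SHP-/- library 1, 2 rose, and without wild-type library 2, 4 fell. Of 9 female-biased genes tested, 0 rose (1 at an unadjusted p under 0.05, 0 by limma trend), 5 fell and 4 did not pass, and 1 to 3 fell in the fits that left out 1 library, while 1 rose without SHP-/- library 1. Cyp4a10 had −1.52 ± 0.24 (adjusted p = 0.00123, lost under robust variance moderation at 0.0562), Fmo4 −1.14 ± 0.36 (adjusted p = 0.0490, lost in 10 of 14 alternatives) and Cyp4a14 −1.13 ± 0.30 (adjusted p = 0.0223, lost in 5 of 15), while Hamp2 did not pass (−0.11 ± 0.29).

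**Figure D5:**
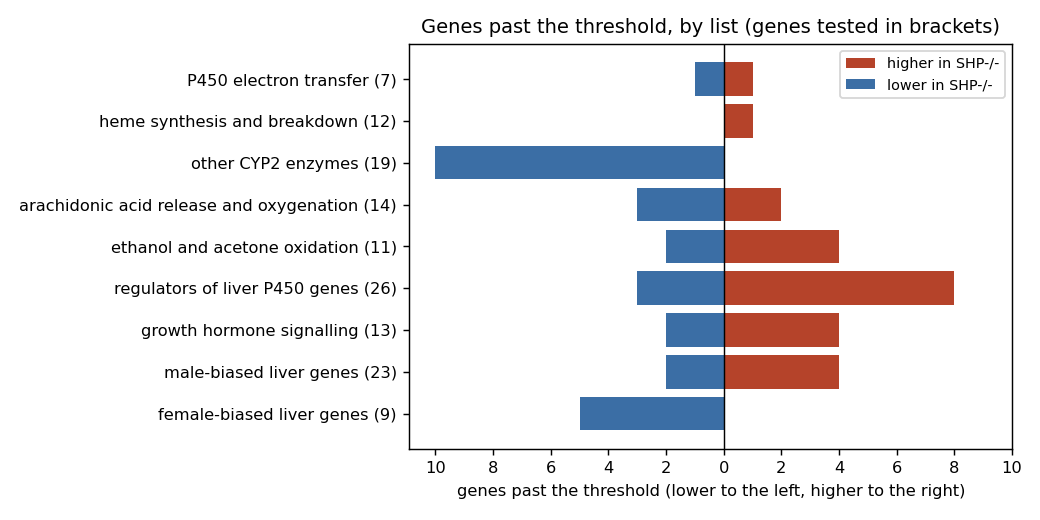
Horizontal bars count the genes past the threshold in each list (x axis), higher in SHP-/- to the right and lower in SHP-/- to the left, with the number tested in brackets. The list of other CYP2 enzymes has 10 lower and 0 higher. Of all genes tested, 7.58% passed towards higher and 6.94% towards lower. The regulators of liver P450 genes have 8 higher and 3 lower, the targeted gene Nr0b2 among the lower.

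Markers of zones in the liver lobule moved in both directions. Of 20 pericentral genes, a zone in which Cyp2e1 is itself a marker, 4 rose, 3 fell and 13 did not pass, with summed levels of 6015 to 6918 CPM in SHP-/- libraries and 6693 to 7904 CPM in wild-type libraries. Rhbg had a log2 difference of 1.84 ± 0.28 (limma voom adjusted p = 0.00123), Ces1c −1.06 ± 0.11 (adjusted p = 0.000111), and Glul, glutamine synthetase next to the central vein, 0.01 ± 0.10. Of 22 periportal genes, 3 rose, 6 fell and 13 did not pass. G6pc had −1.11 ± 0.16 (adjusted p = 0.000834) and Etnppl −1.08 ± 0.14 (adjusted p = 0.000329). Aldh1b1, also on this list, rose by 0.91 ± 0.14 (adjusted p = 0.00124). Without wild-type library 3, 2 periportal genes rose and 3 fell.

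Other cell types were represented at low levels. Of 12 macrophage markers 3 rose and 0 fell (1 at an unadjusted p under 0.05, 1 by limma trend), with sums of 437 to 671 CPM in SHP-/- libraries and 431 to 505 CPM in wild-type libraries. Marco had 1.07 ± 0.31, C1qa 0.73 ± 0.17, C1qc 0.64 ± 0.19 and Cd5l 0.26 ± 0.13 on the log2 scale (limma voom adjusted p = 0.0324, 0.0119, 0.0340 and 0.193), and 0 to 2 rose in the fits without 1 library. Of 12 endothelial markers 1 rose (Lyve1, 0.82 ± 0.22, adjusted p = 0.0244, lost in 4 fits without 1 library) and 0 fell (4 at an unadjusted p under 0.05, 0 by limma trend), with sums of 511 to 800 CPM in SHP-/- and 724 to 824 CPM in wild type, and Ptprb had −0.19 ± 0.15. Without SHP-/- library 1, 2 endothelial markers rose, and 1 fell without SHP-/- library 2 and 1 without SHP-/- library 3. Of 12 stellate and matrix markers 2 rose and 0 fell, Col4a2 (0.65 ± 0.19, adjusted p = 0.0342) and Col4a1 (0.40 ± 0.11, adjusted p = 0.0301), with Reln at −0.37 ± 0.18 and sums of 360 to 547 CPM in SHP-/- and 420 to 490 CPM in wild type, and 0 to 3 rose without 1 library, with 1 that fell without SHP-/- library 3. Cholangiocyte markers (4 tested) and erythroid and lymphoid markers (6 tested) had 0 calls in either limma fit (voom or trend). Before adjustment, p was under 0.05 for 0 of the 4 and 2 of the 6. Among erythroid and lymphoid markers 1 rose without SHP-/- library 1 and 2 rose without SHP-/- library 2. Hbb-b2, a hemoglobin chain, was at 64.8, 68.9 and 172 CPM in SHP-/- libraries and at 80.0, 73.8 and 73.4 CPM in wild-type libraries, so that SHP-/- library 3 stood apart. Spp1 had −0.28 ± 0.16 and Alas2 −0.14 ± 0.12. Among 8 markers of kidney or gut, tissues that also express CYP2J genes, 4 had counts and 2 were tested, and Fabp2 fell by 1.30 ± 0.16 (adjusted p = 0.000315) while Lgals4 did not pass (−0.06 ± 0.22). The part of these cell types in the difference of Cyp2j5 was not tested.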

How the data were processed

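Liver RNA of 3 SHP-/- and 3 wild-type mice was sequenced. The submitters' processing notes name Novoalign 2.05.33 and the mm9 build. The authors deposited 1 table with whole-number counts per gene for each library, and pooled RPKM and log2 ratio columns, per the file headers; the program that counted, its annotation, and its treatment of strand and of reads with several alignments are steps not given in the sources used here. In the deposited table, 4840 lines end early, and an earlier description therefore did not record its columns under the unit of counts. Here the values present, all whole numbers, were analysed as counts, and limma voom was kept as the test. Of counts between 1 and 19, 61.8% were even. Genes needed 10 counts per median library (1.83 CPM) in at least 3 libraries and 15 in all. TMM factors were computed with code written for this work, and differences with limma 3.58.1 (voom) in R 4.3.3, which was tested on simulated data. The p-values measure the spread between these samples. The members and the 17 gene lists were chosen with earlier results of these data known. Genes named were all 8 members; of each list up to 3 past the threshold with the largest difference, and the most abundant not past it; and the 3 genes most correlated with Cyp2e1 and with the member of lowest p. Relatives, flanking genes, hepatocyte markers, Nr0b2, Nr1i3, Nr5a2, Ghr and Hbb-b2 were added. Transcripts were from GENCODE M21 and promoters from RefSeq.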

Additional observations from a re-analysis of the deposited data

How the results depend on the processing

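Across the 15 alternatives, 111 of 120 differences of the 8 enzymes kept their direction and their side of the threshold, 8 changed sign without passing the threshold, and 1 newly passed. Cyp2j5 passed in each. The sign changes came from fits that left out 1 library, in which the log2 difference ran from −0.26 to 0.021 for Cyp2d9, from −0.19 to 0.039 for Cyp2d10, from −0.062 to 0.17 for Cyp2d22 and from −0.17 to 0.012 for Cyp2e1; fewer samples entered these fits. With the stricter filter of 50 counts per median library, 8071 genes were tested and the members past the threshold numbered 2, Cyp2j5 and Cyp2u1. Genes past the threshold without 1 library ran from 353 to 818 higher and from 276 to 783 lower, with 1 member in each. Same-numbered libraries did not deviate together (correlations −0.019, −0.021 and −0.024, and 0 of the 3 numbers matched its own best). With so few libraries, this cannot settle whether the numbers pair the mice. With a replicate block, 936 genes were higher and 843 lower, 1 member passed, and Cyp2j5 had −0.55 ± 0.10. Of the 8 enzymes Cyp2u1 had the fewest counts, 199 to 356 per library.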
